A study of Mus musculus with 9 samples.

Results

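A set of 10 genes of MHC class II presentation and Langerhans cells was taken by gene symbol from the counts of back skin in wild-type C57BL/6 (B6) mice. They were Cd74, H2-Aa, H2-Ab1, H2-Eb1, H2-DMa, H2-DMb1, Ciita, Cd207, Epcam and Cst3, and all 10 were present among 23282 entries in each of 9 libraries. Nothing measured was used to choose them, although they were chosen with earlier results of these libraries known. Lexogen Quant-Seq, which reads 1 tag near the 3′ end of each transcript, was run on total RNA of skin taken 24 h after treatment. The group labelled None was unstripped skin, the group TS was tape-stripped skin with control cream, and the group TS_NGO was tape-stripped skin with a cream carrying 50 µg of nano-sized graphene oxide (NGO) per mouse. Tape stripping peels off the outer epidermal layers and injures the barrier. Each group had 3 libraries. The None libraries are also labelled as control cream, while the protocol places cream on stripped areas, so whether cream touched unstripped skin is not settled by the labels. The labels give no age, sex or pooling of animals. Replicates are not stated to be separate animals, and p-values therefore describe only how these libraries varied.

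Class II molecules are pairs of an alpha and a beta chain that hold peptides from ingested protein on the cell surface for CD4+ T cells to read. The pairs are assembled with the invariant chain, which fills the peptide groove until proteases cut it down and the H2-DM editor swaps its remnant for a peptide. Transcription of this whole set depends on the transactivator CIITA, which binds no DNA itself and is recruited by factors sitting on a shared promoter module. In epidermis the resident class II cells are Langerhans cells, marked by langerin (Cd207) and, in mice, by high Epcam. Dermal dendritic cells, macrophages and B cells carry class II as well.

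The shared module is visible in part in the promoters. The 3 shown are those of the class II members for which the RefSeq table (GRCm38.p6) held a proximal match. The module has an X box, bound by RFX factors, and an X2 box, bound by CREB family factors. Its Y box, an inverted CCAAT element, is bound by NF-Y. Each run below is the 150 bases before the annotated start, 5′ to 3′ on the gene's strand, with capitals marking the Y box letters GATTGG, the X box letters AACTGATGATGCT and the X2 letters TGACGTCA (both strands searched, with no overlap between motifs).
H2-Aa, chr17:34287824-34287973, minus strand: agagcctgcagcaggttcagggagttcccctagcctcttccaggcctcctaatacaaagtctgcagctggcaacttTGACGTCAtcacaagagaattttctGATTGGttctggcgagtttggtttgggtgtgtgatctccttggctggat
H2-Eb1, chr17:34305717-34305866, plus strand: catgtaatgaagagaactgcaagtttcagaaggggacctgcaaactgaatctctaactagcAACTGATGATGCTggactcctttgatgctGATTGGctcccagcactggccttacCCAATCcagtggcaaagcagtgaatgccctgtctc
H2-DMb1, chr17:34153041-34153190, plus strand: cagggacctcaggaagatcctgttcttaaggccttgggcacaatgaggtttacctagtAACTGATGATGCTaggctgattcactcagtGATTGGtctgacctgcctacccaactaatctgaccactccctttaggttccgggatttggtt
Langerin's gene is shown for contrast, as a Langerhans cell gene outside the class II set.
Cd207, chr6:83677858-83678007, minus strand: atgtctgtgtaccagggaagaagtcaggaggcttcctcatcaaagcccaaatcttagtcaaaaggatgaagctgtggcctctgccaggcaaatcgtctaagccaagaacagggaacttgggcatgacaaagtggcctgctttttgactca

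In H2-Eb1 the X box began 89 bases before the start and the nearest forward Y box 60 bases before it. In H2-DMb1 these distances were 92 and 62 bases, close to those of H2-Eb1. They hold for the RefSeq start of H2-DMb1. The GENCODE start of that gene (34153072) lies within the printed run, upstream of both marked boxes. H2-Aa held the X2 letters 74 bases and the Y box 49 bases before its start. Of 32851 promoter windows in the table (250 bases before to 50 after a start), 16.1% held the Y box letters, 0.00913% the X box letters and 1.79% the X2 letters. The X box letters are the longest run that the H2-Eb1 and H2-DMb1 stretches share, so their match there is a description. The ends of that run need not be those of the X box, and it may reach into the X2 position. A missing exact match therefore does not mean a missing box. The table matched 7 of 10 members. The windows of Cst3, Cd207, Epcam and the first of 2 H2-DMa windows held none of these letters, and the other H2-DMa window held a Y box 199 bases before its start. Cd74, H2-Ab1 and Ciita had no entry.

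Values below are normalised counts in CPM, each count divided by the TMM-scaled library size. Library totals ran from 2019739 to 6303322 counts, so that 1 count was worth between 0.166 and 0.517 CPM. The libraries also differed in the shares of counts from muscle and basal epidermal genes, and whether cells or RNA per cell differed was not tested. A list of 13 skeletal muscle genes took 0.00930% to 0.131% of counts in unstripped skin, 3.90% to 8.21% in stripped control skin and 2.01% to 3.88% in NGO-treated skin. A list of 10 basal epidermal genes took 2.71% to 3.35%, 0.145% to 0.246% and 1.36% to 2.11% in the same order. Their part in the results was not tested. Leaving muscle genes and Rn45s, the ribosomal RNA precursor, out of the library sizes returned the same calls for the members. TMM scaling was computed again there, and calls over all genes after stripping only went from 1870 to 1867. That setting changed the scaling alone, so it cannot show what part muscle or basal epidermal genes had.

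Stripping went with much lower class II transcripts, and the invariant chain gene fell the most among those called. Cd74, which encodes the invariant chain (chromosome 18), was at 144, 138 and 125 CPM in unstripped replicates 1 to 3. Stripped control skin had 3.62, 12.998 and 7.71 CPM, and NGO-treated skin 29.9, 29.1 and 61.6 CPM. No group overlapped another: unstripped libraries were highest and stripped control libraries lowest. Cd74 fell by 4.04 ± 0.56 (log2 fold change ± SE, 16.4-fold) after stripping, with an adjusted p of 0.000339 in edgeR's quasi-likelihood test. In whole skin, fewer cells of a type and less RNA per cell cannot be told apart.

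**Figure D1:**
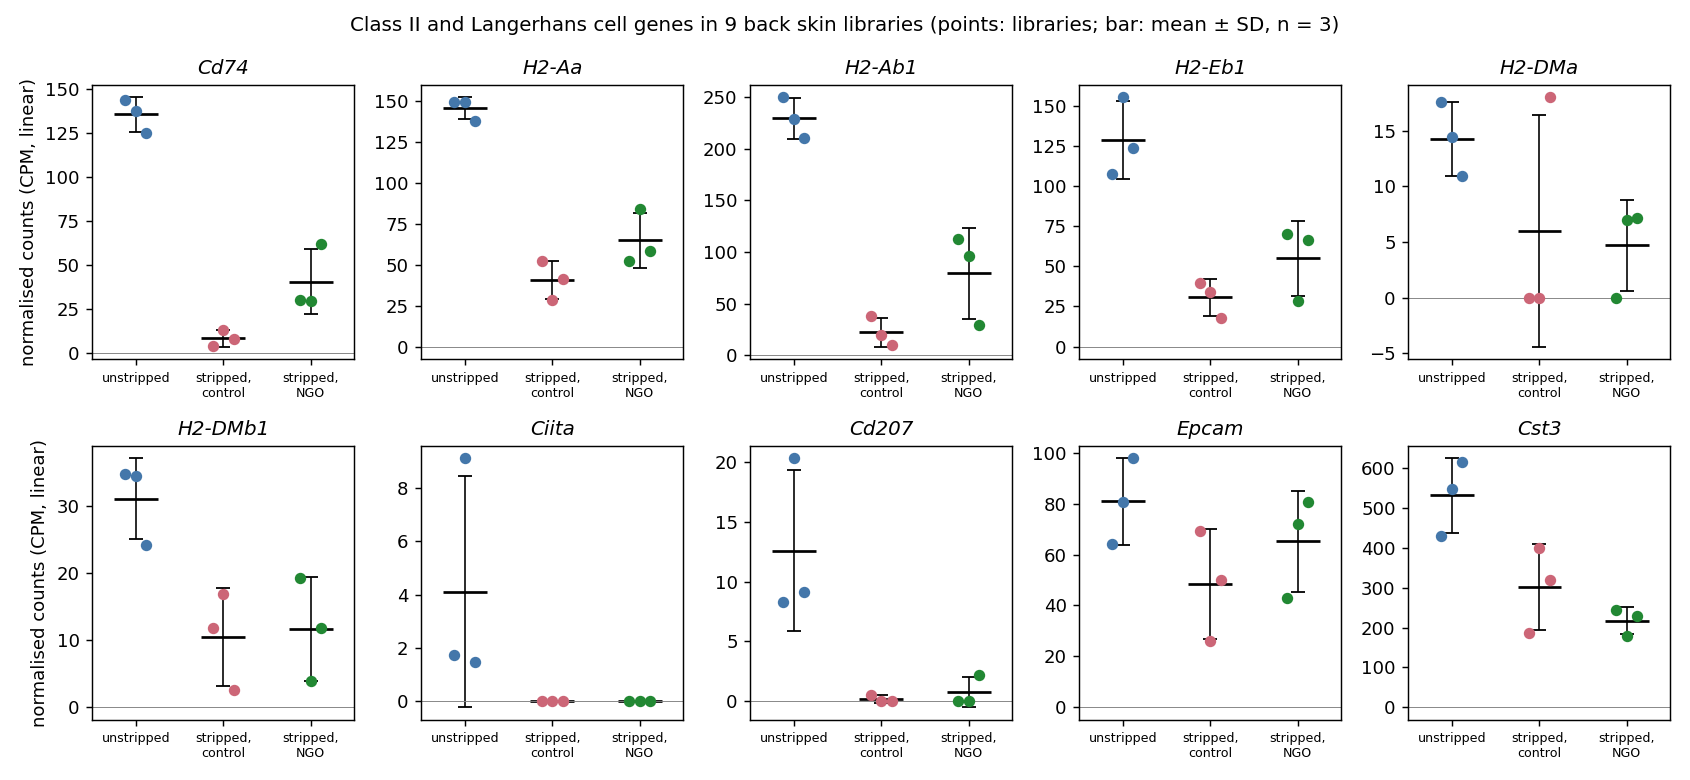
Normalised counts (CPM, linear axis) of the 10 genes in each library, with the mean and SD of 3 libraries per group. Class II chain genes and Cd74 were highest in the 3 unstripped libraries, Ciita had 0 counts in all 6 stripped libraries, and Epcam overlapped between groups.

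The genes of the class II chains themselves fell as well, by unequal amounts. H2-Ab1, the beta chain of the I-A molecule (chromosome 17, 34257689 to 34269419), was at 249.7, 228 and 210.2 CPM in unstripped skin. Stripped control libraries had 37.8, 19.5 and 10.3 CPM, and NGO-treated libraries 113, 96.0 and 29.6 CPM. The lowest NGO-treated library, replicate 3, lay inside the range of stripped control skin. H2-Ab1 fell by 3.36 ± 0.57 after stripping (edgeR adjusted p = 0.00132).

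H2-Aa, the alpha chain that pairs with H2-Ab1 (chromosome 17, 34282744 to 34287823), was at 149.97, 149 and 138 CPM in unstripped skin. It was at 52.2, 28.6 and 41.4 CPM in stripped control skin and 52.2, 84.0 and 58.7 CPM in NGO-treated skin. NGO-treated replicate 1 was just below the highest stripped control library, and all 6 stripped libraries were below the unstripped ones. H2-Aa fell by 1.84 ± 0.39 (edgeR adjusted p = 0.00582). H2-Eb1, a beta chain gene of the I-E molecule (chromosome 17, 34305867 to 34316674), was at 107, 155 and 124 CPM, then 39.8, 33.8 and 18.0 CPM, then 70.1, 28.2 and 66.5 CPM in the same order of groups. NGO-treated replicate 2 fell within the stripped control range. H2-Eb1 fell by 2.08 ± 0.48 after stripping (edgeR adjusted p = 0.0105), a call lost without unstripped replicate 2 (edgeR adjusted p = 0.0516). An annotated antisense transcript covers 2204 bases of H2-Eb1, and no source used here says how strand was counted.

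The peptide editor genes were lower on average but did not pass. H2-DMb1, the beta chain of H2-DM (chromosome 17, 34153072 to 34160230), was at 34.7, 34.5 and 24.2 CPM in unstripped skin. Stripped control skin had 11.9, 16.9 and 2.57 CPM and NGO-treated skin 19.3, 3.93 and 11.8 CPM. Unstripped libraries were above all stripped ones, and both stripped groups overlapped. The change after stripping was -1.57 ± 0.93 (edgeR adjusted p = 0.305). H2-DMb1 has a close copy beside it, H2-DMb2, at 0 to 8 counts per library, and how reads matching both were counted is not given.

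H2-DMa, the alpha chain of the editor (chromosome 17, 34119541 to 34139101), showed how uneven the stripped libraries were. It had 51, 49 and 37 counts in unstripped skin, but 0, 0 and 56 counts in stripped control skin and 0, 30 and 43 counts in NGO-treated skin. A single stripped control library therefore carried all counts of that group and, at 18.0 CPM, exceeded each unstripped library. The fitted change after stripping was -1.24 ± 1.86 (edgeR adjusted p = 0.742), and it was -8.64 without that library, stripped control replicate 3. H2-DMa overlaps the opposite-strand gene Brd2 by 3094 bases.

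Ciita, the transactivator gene (chromosome 16, 10480059 to 10528418), was near the detection limit even in unstripped skin, with 5, 31 and 5 counts. It had 0 counts in all 3 stripped control and all 3 NGO-treated libraries. It did not pass the low-count filter and was not tested. Against a floor of 3 counts over the group, Ciita was at least 11.1-fold lower in stripped control skin and at least 18.7-fold lower in NGO-treated skin, for counting error only. Unstripped replicate 2 supplied most of its counts. Ciita overlaps the opposite-strand gene Dexi by 25888 bases.

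Langerin was close to undetected in stripped skin. Cd207, the C-type lectin that forms the Birbeck granules of Langerhans cells (chromosome 6, 83671215 to 83677857), had 24, 69 and 31 counts in unstripped skin, or 8.25, 20.3 and 9.14 CPM. Stripped control skin had 1, 0 and 0 counts. NGO-treated skin had 0, 0 and 13 counts, all in replicate 3, the deepest library. Every stripped library lay below every unstripped one. The count ratio of stripped control to unstripped skin was 0.00962 (95% interval 0.000242 to 0.0546, counting error only). The fitted change of -6.13 ± 2.36 did not pass (edgeR adjusted p = 0.107), while DESeq2 (adjusted p = 0.0208) and limma-voom (adjusted p = 0.0260) called it.

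Epcam, an epithelial adhesion molecule that Langerhans cells share with hair follicle keratinocytes (chromosome 17, 87635979 to 87651129), was at 64.0, 80.8 and 97.9 CPM in unstripped skin, 69.3, 26.0 and 50.1 CPM in stripped control skin and 42.9, 72.2 and 80.5 CPM in NGO-treated skin. All 3 groups overlapped. The change after stripping was -0.74 ± 0.46 (edgeR adjusted p = 0.334) and that with NGO 0.43 ± 0.46 (edgeR adjusted p = 0.651).

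Cst3 encodes cystatin C, a secreted inhibitor of cysteine cathepsins that many cell types make (chromosome 2, 148871722 to 148875692). It was at 431, 549 and 616 CPM in unstripped skin, 187, 400.3 and 319.7 CPM in stripped control skin and 244, 178 and 229.8 CPM in NGO-treated skin. Stripped control skin lay below unstripped skin but overlapped NGO-treated skin. The change after stripping was -0.81 ± 0.32 (edgeR adjusted p = 0.116; limma-voom adjusted p = 0.0300).

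After stripping, 4 of 10 members fell (Cd74, H2-Ab1, H2-Aa and H2-Eb1) and 0 rose. Over all 13740 genes tested, 13.6% were called, 7.64% lower and 5.97% higher. Groups did not overlap for 7 of the 9 tested members, all lower in stripped control skin, and for Ciita. This stands against 38.5% of all tested genes without overlap, 24.7% lower and 13.8% higher. The 9 members that passed the filter had a median log2 fold change of -1.84, and all genes tested a median of -0.20.

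**Figure D2:**
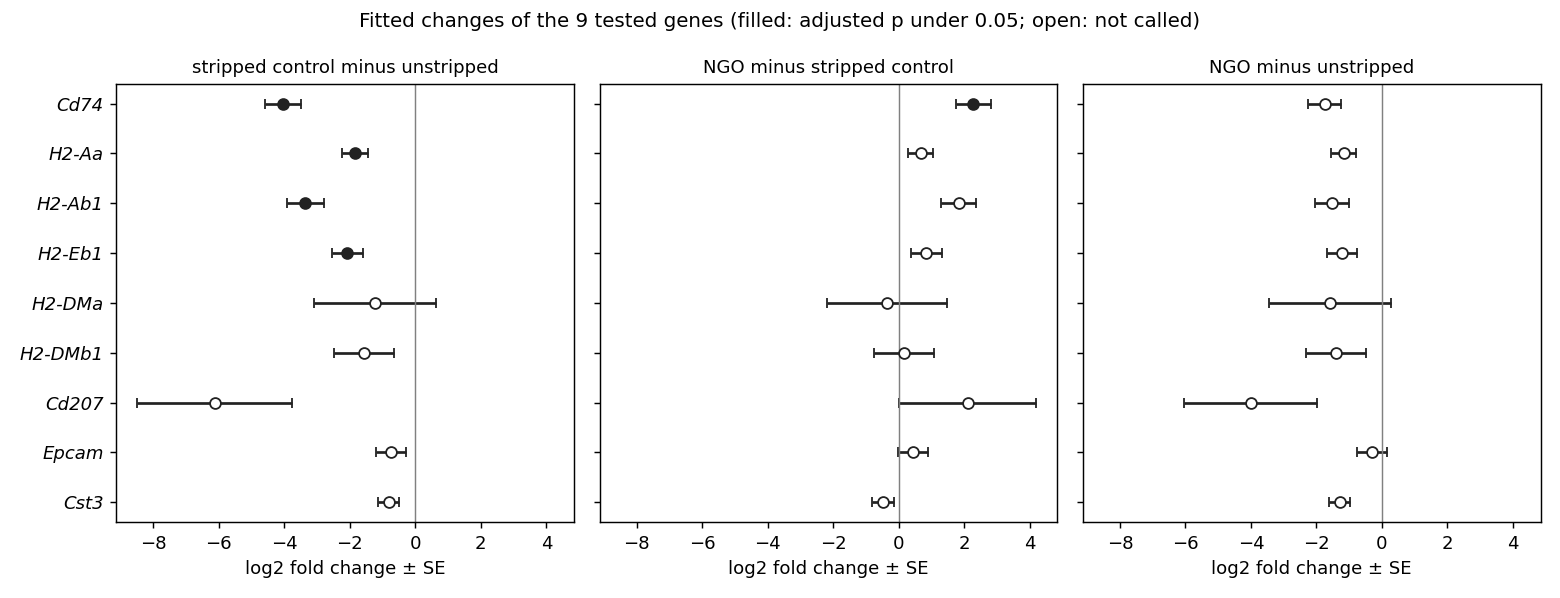
Log2 fold changes with their SE for the 9 tested genes in 3 comparisons (filled points have an edgeR adjusted p under 0.05). Cd74, H2-Aa, H2-Ab1 and H2-Eb1 are filled at left, Cd74 alone in the middle panel at 2.29, and no gene at right.

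With NGO on stripped skin, Cd74 was the only member that edgeR called. It rose by 2.29 ± 0.53 over stripped control skin (4.88-fold, edgeR adjusted p = 0.0271), and all 3 libraries with NGO exceeded every stripped control one. The change of H2-Ab1 was 1.83 ± 0.54 (edgeR adjusted p = 0.0670), that of H2-Eb1 0.85 ± 0.46 (0.316) and that of H2-Aa 0.68 ± 0.38 (0.329), and none of these passed. H2-DMb1 (0.16 ± 0.91), H2-DMa (-0.35 ± 1.83), Cst3 (-0.48 ± 0.32) and Cd207 (2.12 ± 2.09) did not pass either. Cd207 rested on 1 library: without NGO-treated replicate 3 its change was -2.21. Ciita had 0 counts on both sides.

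Thus 1 of 10 members rose and 0 fell, where 5.05% of all tested genes were called, 3.87% higher and 1.18% lower. Groups did not overlap for Cd74 alone of the 9 tested, against 25.2% of tested genes without overlap, 16.3% higher and 8.92% lower. The Cd74 call was lost without unstripped replicate 1, 2 or 3 (edgeR adjusted p = 0.0505, 0.0563 and 0.0531), stripped control replicate 3 (0.0588), or NGO-treated replicate 1 or 3 (0.0578 and 0.112). It was also lost with only the 2 groups (0.208) and with limma-voom (adjusted p = 0.239). Its log2 fold change stayed between 1.78 and 2.81 in all alternatives. H2-Ab1, in turn, passed without stripped control replicate 1 (edgeR adjusted p = 0.0209) or NGO-treated replicate 3 (0.0303). H2-Ab1 also passed with no low-count filter (edgeR adjusted p = 0.014), with the replicate block (0.0409) and with DESeq2 (adjusted p = 0.0332).

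NGO-treated skin was still lower than unstripped skin for most members, although no difference passed the edgeR test. Groups did not overlap for 8 of the 9 tested members, all lower in NGO-treated skin, and for Ciita. This stands against 26.2% of tested genes, 14.4% lower and 11.9% higher. Epcam was the exception, at -0.31 ± 0.45. The change was -1.75 ± 0.50 for Cd74 (edgeR adjusted p = 0.11), -1.53 ± 0.52 for H2-Ab1 (0.204), -1.23 ± 0.46 for H2-Eb1 (0.27) and -1.17 ± 0.38 for H2-Aa (0.171). Cst3 differed by -1.29 ± 0.33 (edgeR adjusted p = 0.0579), and it was also lower than in stripped control skin on average. By edgeR 0 of 10 members were called, where 2.51% of all tested genes were called, 0.451% lower and 2.06% higher. At an unadjusted p under 0.05 there were 5 members, and 1609 of all 13740 genes tested. DESeq2 called 2 members (Cd74 and Cst3) and 756 of all genes. With limma-voom 6 members and 1353 of all genes were called. All 3 comparisons share libraries pairwise, so their values stand side by side and are not independent.

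For Cd74 the order of the levels was therefore unstripped, NGO-treated, stripped control, with no overlap between neighbours. H2-Ab1, H2-Aa and H2-Eb1 had the same order of means, but NGO-treated and stripped control libraries overlapped. Cst3 and H2-DMa had their lowest mean in NGO-treated skin, within overlapping ranges. Spread also differed by group. For Cd74 the SD came to 7.18% of the mean without stripping, 58.0% with stripping alone and 46.0% with NGO, and that of H2-Ab1 was 8.63%, 62.1% and 55.4%.

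Ratios of counts within a library do not depend on how libraries are scaled. They share Cd74 as denominator, with 7, 40 and 24 Cd74 counts in stripped control libraries. For each Cd74 count, unstripped libraries had 1.04 to 1.11 H2-Aa counts, stripped control libraries 2.2 to 14.4 and NGO-treated libraries 0.954 to 2.88. H2-Eb1 counts per Cd74 count were 0.745 to 1.13, 2.33 to 11 and 0.968 to 2.34 in the same order. Stripped control libraries were above all unstripped ones for both genes, while for H2-Ab1 they were not (1.66 to 1.73, then 1.33 to 10.4).

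Cst3 counts per Cd74 count were 2.99 to 4.93 in unstripped, 30.8 to 51.6 in stripped control and 3.73 to 8.16 in NGO-treated skin. This ratio set stripped control skin apart from both other groups. Epcam counts per Cd74 count were 0.444 to 0.783, 2 to 19.1 and 1.31 to 2.48. Over 15 ratio comparisons (5 genes, 3 pairs of groups) the exact two-sided permutation test gave p = 0.1 for the 6 without overlap, the smallest that 3 against 3 libraries allow, and 0.25 after adjustment over the 15.

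**Figure D3:**
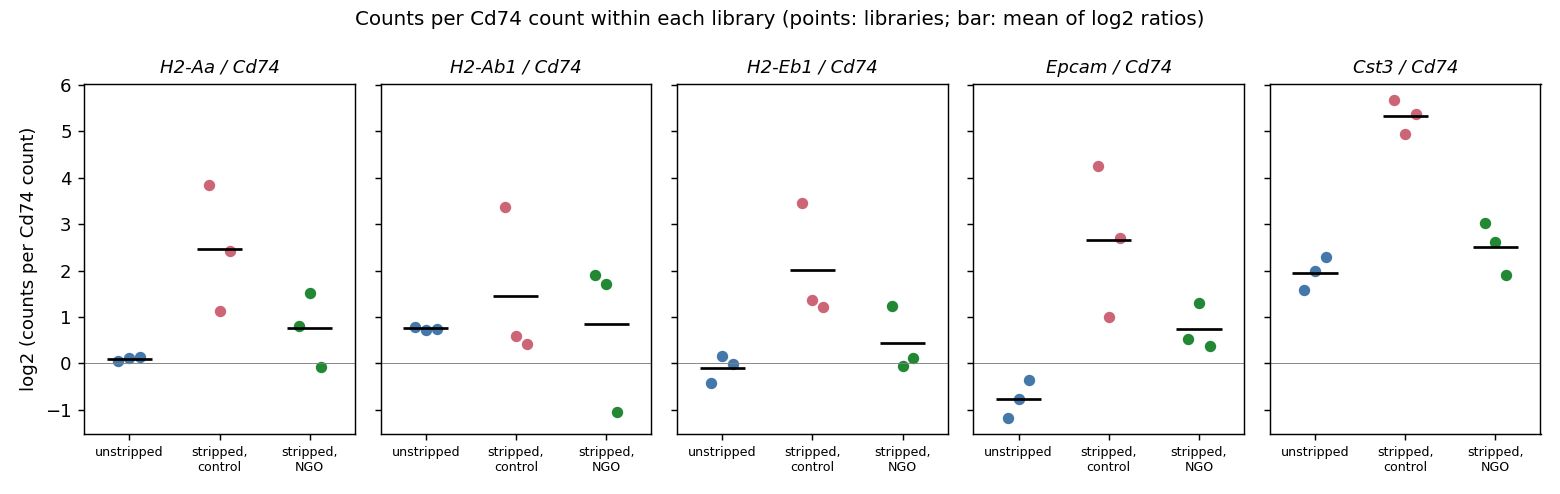
Counts of 5 genes per Cd74 count on a log2 axis, 1 point per library, with a bar at the mean of the log2 ratios. Stripped control libraries lie highest for Cst3 (30.8 to 51.6 counts per Cd74 count), and H2-Ab1 overlaps between groups.

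The members were also set against the basal epidermal list. Per 10000 basal epidermal counts, Cd74 had 44.8 to 58.9 counts in unstripped, 14.8 to 42.4 in stripped control and 15.7 to 41.5 in NGO-treated skin. Both stripped groups were below unstripped skin on this scale and overlapped each other. H2-Aa had 46.6 to 63.9, 93.3 to 219 and 27.4 to 67.9 counts, so that stripped control skin was highest and the other two overlapped. H2-Ab1 overlapped between all groups (77.6 to 97.7, 54.4 to 155 and 19.99 to 77.7 counts), with NGO-treated and unstripped skin touching at 77.7 and 77.6. Cd207 had 2.56 to 8.70 counts in unstripped skin and at most 2.12 and 1.46 in the stripped groups. Relative to basal epidermal counts, Cd74 and Cd207 were lower in stripped control skin. H2-Aa, H2-Eb1 (33.3 to 66.3, then 95.1 to 163), Epcam (19.9 to 37.8, then 84.8 to 284) and Cst3 (134 to 238, then 765 to 1690) were higher on that scale. The basal list itself went from 2.71% to 3.35% of counts in unstripped skin to 0.145% to 0.246% in stripped control skin. In CPM, H2-Aa, H2-Eb1, Epcam and Cst3 all had lower means in stripped control than in unstripped skin. Their higher ratios therefore mean a smaller fall than that of the basal list, and are not values per cell.

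Of 14 processing and editing genes, 10 were tested and 1 fell after stripping. It was Sppl2a (-1.77 ± 0.43, edgeR adjusted p = 0.0151), the protease that clears the last membrane stub of the invariant chain. It no longer passed without unstripped replicate 3 (edgeR adjusted p = 0.0678) or stripped control replicate 3 (0.0513). The median of the 10 was -0.01, and 0 rose. Ctss, the cathepsin that trims the invariant chain, was at 24.0 CPM on average in unstripped and 23.6 CPM in stripped control skin (-0.03 ± 0.66). Ctsl (1.13 ± 0.44), Ctsd (1.10 ± 0.42) and Lgmn (1.46 ± 0.97), lysosomal proteases, did not pass. Ctsh, a further lysosomal protease, averaged 51.9 CPM in unstripped and 13.3 CPM in stripped control skin without overlap, and its change of -1.94 ± 0.86 did not pass either. Ctss, Ctsl, Ctsd, Lgmn and Ctsh were chosen after their values were seen. After stripping, DESeq2 called 3 of this list and limma-voom 2. With NGO, 0 of 10 passed in edgeR, with 0 at an unadjusted p under 0.05 and 0 by DESeq2 or limma-voom.

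Of 14 genes of class II transcription and its interferon-gamma input, 13 were tested, 4 fell and 0 rose after stripping (median -0.71). Among them, the receptor gene Ifngr1 (-1.64 ± 0.42, edgeR adjusted p = 0.0194) and the Y box subunit gene Nfyb (-2.12 ± 0.56, 0.0234) fell. Ifngr1 was lost without unstripped replicate 1 or 3 or stripped control replicate 1 (edgeR adjusted p = 0.0548, 0.0731 and 0.0504), and Nfyb without unstripped replicate 1 (0.108), with only the 2 groups (0.0672) and with limma-voom (adjusted p = 0.0747). Creb1 (-1.46 ± 0.44, edgeR adjusted p = 0.0421), whose family binds the X2 box, also fell and was named after its values were seen. It was lost under RLE and upper-quartile scaling (0.0622 and 0.0551), with only the 2 groups (0.0755) and without each of 7 libraries: unstripped replicates 1 to 3 (0.0825, 0.154 and 0.104), stripped control replicate 2 (0.0973) and NGO-treated replicates 1 to 3 (0.0544, 0.0561 and 0.0561). The X box subunit genes Rfx5 (-0.71 ± 0.73), Rfxap (-0.01 ± 1.86) and Rfxank (0.50 ± 0.63), also picked afterwards, did not pass. Ifng itself had 0 counts in all 9 libraries, which allows up to 0.310, 0.369 and 0.220 CPM per group.

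Signals that keep Langerhans cells in the epidermis come partly from keratinocytes. Of 19 Langerhans identity and niche genes, 16 were tested, 2 fell and 1 rose after stripping (median -0.23). Il34, the keratinocyte cytokine that sustains Langerhans cells, was at 279, 165 and 176 CPM in unstripped skin, 0, 20.5 and 3.86 CPM in stripped control skin and 49.8, 10.6 and 19.0 CPM with NGO. It fell by 4.62 ± 0.98 (edgeR adjusted p = 0.00651; 0.0741 with no low-count filter), and its change with NGO did not pass (1.65 ± 0.89, 0.309). Cdh1, E-cadherin, which ties Langerhans cells to keratinocytes and which keratinocytes make, fell by 4.16 ± 0.35 (edgeR adjusted p = 1.14e-05) and rose by 2.94 ± 0.34 with NGO (0.000707).

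Cd24a, also a neutrophil gene, rose by 2.86 ± 0.45 after stripping (edgeR adjusted p = 0.000853). The summed level of 10 neutrophil genes was 155 to 194 CPM in unstripped and 3840 to 10730 CPM in stripped control skin, and its part in Cd24a was not tested. Most of the stripped control sum came from S100a8 and S100a9, at means of 2509 and 3091 CPM. Of the 10 changes after stripping, 9 were above 0 and 1 below. Csf3r, named after its values were seen, averaged 2.37 CPM in unstripped and 3.31 CPM in stripped control skin. Axl, a receptor for dying cells, rose with NGO by 1.76 ± 0.45 (edgeR adjusted p = 0.0403). That call failed on leaving out any of 8 libraries, up to 0.128, and held without stripped control replicate 1. It also failed with the replicate block (0.0512), under RLE scaling (0.0538), with only the 2 groups (0.113) and with limma-voom (adjusted p = 0.131). The pan-leukocyte gene Ptprc changed by -0.18 ± 0.58 after stripping and by -0.54 ± 0.58 with NGO, and Csf1r, the receptor for Il34, by -0.96 ± 0.63 and -0.24 ± 0.63. Neither passed, and both were named after their values were seen.

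**Figure D4:**
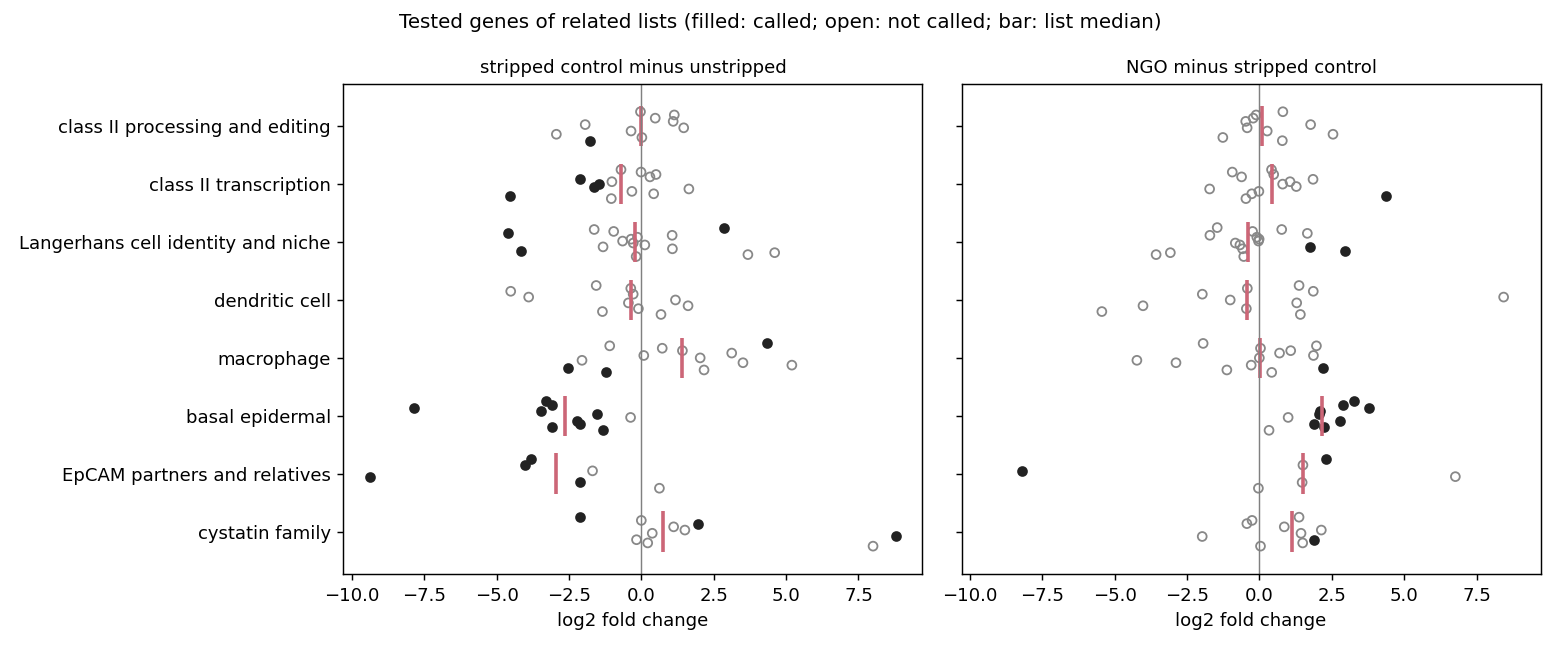
Log2 fold changes of the tested genes of 8 related lists after stripping (left) and with NGO (right), with filled points for edgeR adjusted p under 0.05 and a bar at the list median. Basal epidermal genes lie low at left and high at right, and Cldn4, Cldn7 and Stfa2l1, at 0 counts in a group, lie far out with a fitted size that depends on the prior count.

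Other class II cells gave mixed values. Of 22 dendritic cell genes, 11 were tested and 0 were called by edgeR after stripping or with NGO (1 and 3 at an unadjusted p under 0.05, 1 and 3 by DESeq2, 1 and 0 by limma-voom). The summed level of that list was 204 to 253 CPM in unstripped, 189 to 245 CPM in stripped control and 196 to 335 CPM in NGO-treated skin. Within the list, Clec9a, Zbtb46, Ccl22 and Ccl17 had 0 counts in every library, while the other listed genes had counts in at least 1 library. Fscn1, an actin-bundling gene of mature dendritic cells, was higher in NGO-treated than in unstripped skin by 2.09 ± 0.40 (edgeR adjusted p = 0.0101). That call was lost without unstripped replicate 2 or 3 or NGO-treated replicate 2 (edgeR adjusted p = 0.0698, 0.0745 and 0.0724). Fscn1 was the only dendritic cell gene that edgeR called in that comparison. Of the 11 tested changes, 4 were above 0 and 7 below (median -0.56). Ccr7, Cd40 and Cd83 had 4, 19 and 40 counts in unstripped and 0 in NGO-treated skin. Cd80 averaged 5.99 and 1.05 CPM, and Cd86 2.26 and 4.07 CPM, in the same order. Ccr7, Cd40, Cd83, Cd80 and Cd86 were named after their values were seen.

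Of 14 macrophage genes, 13 were tested, 1 rose and 2 fell after stripping (median 1.42). Cd68 rose by 4.33 ± 0.65 (edgeR adjusted p = 0.000553), while Maf fell by 2.54 ± 0.57 (0.00971) and Lgals3, which keratinocytes also make, by 1.24 ± 0.30 (0.0141; 0.0559 without unstripped replicate 1). With NGO, Maf rose by 2.20 ± 0.57 (0.0426), a call lost without any 1 of 8 libraries (up to 0.129), under RLE scaling (0.0571), with only the 2 groups (0.149) and with limma-voom (adjusted p = 0.110). It held without stripped control replicate 1. The summed level of the list ranged from 864 to 1302 CPM in unstripped, 536 to 830.3 CPM in stripped control and 598 to 808 CPM in NGO-treated skin. Lgals3 alone made up most of that sum in unstripped skin, at 1161, 745 and 748 CPM. In stripped control skin it was at 347, 436 and 341 CPM. The sum therefore mainly follows Lgals3, while 9 of the 13 tested changes after stripping were above 0 and 4 below.

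Most B cell genes were near 0. Of 9, Cr2 alone was tested, and Ms4a1, Cd79b, Pax5, Cd22 and Blk had 0 counts in unstripped skin. Cr2 was at 242 ± 112 CPM in unstripped skin and rose by 1.81 ± 0.50 after stripping (edgeR adjusted p = 0.0271), opposite in direction to the class II chains. The rise was lost without unstripped replicate 2 or 3 or stripped control replicate 1 (0.112, 0.0918 and 0.0526).

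Of 6 relatives and partners of Epcam, 4 fell and 0 rose after stripping (median -2.97). The tight junction gene Cldn1 fell by 4.01 ± 0.89 (edgeR adjusted p = 0.00847). Cldn4 had 0 counts in stripped control skin, at least 64.7-fold lower, a call lost without unstripped replicate 1 or 3 (0.0908 and 0.0660). Cldn7, a binding partner of Epcam, had 109, 142 and 74 counts in unstripped, 41, 2 and 30 in stripped control and 0, 0 and 0 in NGO-treated skin. It was at least 47.8-fold lower with NGO than in stripped control skin (edgeR adjusted p = 0.0251), a call lost without unstripped replicate 1 or 2 (0.0548 and 0.0562) or NGO-treated replicate 1, 2 or 3 (0.0767, 0.0687 and 0.0735). It was also lost with the replicate block (0.0535) and with limma-voom (adjusted p = 0.168). Against unstripped skin it was at least 153-fold lower (0.0123).

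Of 16 genes of the cystatin family, to which Cst3 belongs, 10 were tested, 2 rose and 1 fell after stripping (median 0.74). Cst6, cystatin M/E of the upper epidermis and hair follicle, fell by 2.14 ± 0.43 (edgeR adjusted p = 0.00440). Csta1 rose by 1.97 ± 0.57 (0.0356), lost without unstripped replicate 2 or 3 or stripped control replicate 2 (0.134, 0.152 and 0.0502). Stfa2l1, at 0 counts in unstripped skin, was at least 51.4-fold higher (0.0331), a call lost without unstripped replicate 1, 2 or 3 (0.103, 0.106 and 0.108) or stripped control replicate 3 (0.0664), or with the replicate block (0.0592).

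With NGO, BC100530 rose from 558, 407 and 365 CPM in stripped control skin to 1764, 1788 and 1383 CPM, by 1.89 ± 0.40 (edgeR adjusted p = 0.0195; 0.0706 and 0.0626 without NGO-treated replicate 1 or 2). It was also higher than in unstripped skin by 1.72 ± 0.40 (0.0354), lost without unstripped replicate 2 or 3 or NGO-treated replicate 1, 2 or 3 (0.194, 0.200, 0.107, 0.142 and 0.0568). Stfa1 was higher with NGO than in unstripped skin by 1.97 ± 0.43 (0.0250), lost without unstripped replicate 2 or 3 or NGO-treated replicate 1 or 2 (0.142, 0.136, 0.0590 and 0.131). The stefin genes of this list are near copies of each other, so reads may be shared between them.

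Neutrophil, basal epidermal and muscle genes were measured as lists of other cells. Of 10 neutrophil genes tested, 5 rose after stripping, including S100a9 (10.39 ± 0.70), S100a8 (10.05 ± 0.84) and Hdc (6.92 ± 0.60), and 5 fell with NGO. There S100a9 changed by -2.50 ± 0.48 (edgeR adjusted p = 0.0120, and 0.0527 or 0.0510 without NGO-treated replicate 1 or 3, and 0.0630 with only the 2 groups). The calls of S100a8 (-2.70 ± 0.59) and Mmp8 (-3.24 ± 0.70) were each lost without several single libraries, up to edgeR adjusted p = 0.0968 and 0.0811. S100a8 was also lost with no low-count filter (0.116), and Mmp8 with only the 2 groups (0.0754) and with limma-voom (adjusted p = 0.0805). Of 10 basal epidermal genes, 9 fell after stripping and 8 rose with NGO. Krt15, a keratin of the basal layer and the hair follicle, fell by 7.88 ± 0.46 and rose by 3.77 ± 0.38, and Krt5, the basal keratin, fell by 3.31 ± 0.33 and rose by 3.28 ± 0.33. Col17a1 fell by 3.46 ± 0.44, and Itga6 rose by 2.06 ± 0.30 with NGO. All 13 muscle genes rose after stripping, with Actn3 (6.46 ± 0.60), Eno3 (6.78 ± 0.70) and Casq1 (8.23 ± 0.90) of smallest p. With NGO against stripped control skin 0 muscle genes were called by edgeR, with 8 at an unadjusted p under 0.05, and DESeq2 and limma-voom called 2 each.

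The genes with profiles most like Cd74 were sought among 10291 genes whose average log2 CPM reached 3. Likeness was the root mean square difference in log2 CPM over the 9 libraries, after subtracting each gene's unstripped mean. The nearest were Rab3d (0.34), Spink5 (0.43), Itm2b (0.49), Entpd2 (0.56) and Sema3c (0.58), where the median gene was at 2.55. Spink5, an epidermal inhibitor of kallikrein proteases, averaged 727 CPM in unstripped, 49.3 CPM in stripped control and 209.9 CPM in NGO-treated skin.

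For Cd207 the nearest were Slc2a12 (0.88), Ndufa4l2 (0.95), Clca3a1 (0.98), Cx3cl1 (0.98) and Irf4 (0.99), with a median of 3.13. These distances are larger, with Cd207 at 0 in 4 of the 6 stripped libraries. Irf4, a transcription factor of several dendritic cell subsets, had 68, 97 and 85 counts in unstripped, 4, 4 and 0 in stripped control and 18, 0 and 40 in NGO-treated skin. Its change after stripping did not pass (-4.52 ± 1.68, edgeR adjusted p = 0.0957).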

How the data were processed

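The authors deposited whole-number counts per gene symbol, 1 table per library, from Lexogen Quant-Seq libraries of 500 ng total RNA, per the labels' protocols. Bowtie2, bedtools and mm10 are named without versions, per the submitters' processing notes; no source used here says how multiple matches and strand were handled. The tables held 23282 entries and 23238 symbols, and 44 repeat entries were kept apart. Coordinates come from GENCODE M21 (mm10) and promoters from RefSeq (GRCm38.p6). Counts were fitted in R 4.3.3 with edgeR 4.0.16 (quasi-likelihood, robust, TMM, default low-count filter) over all 9 libraries with group as the factor. Of 23282 entries, 13740 passed, including 9 of the 10 members, and p-values were adjusted over all 13740 by Benjamini-Hochberg with a threshold of 0.05. CPM use TMM-scaled library sizes of the genes that passed. SE is the log2 fold change divided by the root of the test's F. The script was tested on simulated data. Replicate libraries differed beyond sampling noise (chi-square per degree of freedom of at least 7.59). Alternatives were DESeq2 1.42.0, limma-voom (limma 3.58.1), other scalings and filters, a replicate block, fits of 2 groups and leaving out each library. Intervals and floors (3 counts) cover counting error alone, since Quant-Seq reads without molecular identifiers are not independent molecules.

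All 10 members are named, with up to 3 called genes of smallest p per list and comparison from 11 related lists, and the 5 nearest profiles to Cd74 and Cd207. Members and lists were chosen with earlier results of these data known. Some genes that this rule selects are not reported here.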

Additional observations from a re-analysis of the deposited data

How the results depend on the processing

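Of 485 member results over 18 alternatives, 448 kept their direction and their side of the threshold. The 4 members that fell after stripping were called in all but 1 alternative. The count of members called there was 3 to 4 when 1 library was left out. With NGO it was 2 with no filter, with the replicate block and with DESeq2, 0 with only the 2 groups and with limma-voom, and 0 to 2 when 1 library was left out. Against unstripped skin, NGO gave 1 with no filter, 2 with only the 2 groups, 2 with DESeq2, 6 with limma-voom and 0 to 2 when 1 library was left out. The causes were not tested.

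Over all genes, calls after stripping numbered 1870, and 2976 with DESeq2 (1159 to 2124 without 1 library). With NGO they numbered 694, and 118 with only the 2 groups, 1721 with DESeq2 and 414 with limma-voom (206 to 929 without 1 library). Those of NGO against unstripped skin numbered 345, and 602, 756 and 1353 in the same order (214 to 495 without 1 library). RLE scaling moved the split with NGO from 532 higher and 162 lower to 428 and 215, and the median log2 change of all genes after stripping from -0.20 to -0.07.

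Directions reversed for members that had not passed, with NGO against stripped control skin. H2-DMa went from -0.35 to 0.90 with the replicate block, 0.53 with limma-voom, 7.11 without stripped control replicate 3 and 0.22 without NGO-treated replicate 1 (-0.96 to 7.11 without 1 library). H2-DMb1 went from 0.16 to -0.29 and -0.39 without those 2 libraries (-0.39 to 0.76 without 1 library). Cd207 went from 2.12 to -2.21 without NGO-treated replicate 3 (-2.21 to 4.59).

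The replicate numbers did not pair the samples: same-numbered libraries' deviations correlated at -0.06 to 0.09, and not every library correlated best with its own number. With the replicate block, calls over all genes were 1650, 559 and 313. Depth limits Ciita, Cd207 and H2-DMa, which had 0 to 69 counts per library.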
